A study of Mus musculus with 24 samples.

Results

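Interferon-stimulated genes are the genes that cells switch on when an interferon binds its receptor, and 39 of them were followed here through mouse liver RNA sequencing. Members were taken by gene symbol from the deposited table, which lists 54432 genes, and all 39 symbols were found. They fall into 24 genes that mainly follow type I interferon, 11 GTPases that mainly follow interferon gamma, and 4 further interferon gamma genes (Irf1, Psmb8, Psmb9 and Tap1). Whole liver came from 24 male C57BL/6 mice, 6 in each of 4 genotypes: wild type (WT), Trib1 Flox/Flox (Trib1-KO), Cebpa Flox/Flox (Cebpa-KO) and Trib1;Cebpa Flox/Flox (DKO). Every mouse, WT included, had received an adeno-associated virus encoding Cre recombinase by intraperitoneal injection when 20 to 21 weeks old, and livers were taken 4 weeks afterwards at midday from chow-fed animals fasted for 4 h. Each genotype held 3 mice from each of 2 cohorts. The promoter driving Cre, and hence the cells in which it acts, is not given in the sources used here. The table's columns give a genotype with a letter and a number and no mouse, so values within a cohort could not be given.

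Type I interferons signal through a receptor whose kinases lead to the assembly of a complex (ISGF3) that holds STAT2 and IRF9 and acts at interferon-stimulated response elements (ISREs). Interferon gamma uses another receptor and acts at gamma-activated sites, and IRF1 then extends that response. Many genes answer both signals, so the 2 classes overlap in their control. In liver the genes are expressed by hepatocytes, Kupffer cells, endothelium and lymphocytes.

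Values are estimated counts that had been scaled between libraries, called normalized counts below. Libraries held 23385895 to 27190701 of them, with 19831 to 21189 genes above 0. Differences are on the scale log2(value + 1), given ± standard error, and come from a limma fit over all 24 libraries and 19810 genes. A gene was called where its limma p, adjusted by the Benjamini-Hochberg method over all genes tested, was under 0.05. Groups were 6 separate mice throughout, and libraries are named by their column's letter and number.

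Reads of the targeted genes checked the labels. Cebpa, the gene of the transcription factor C/EBPα, had a median of 6144 normalized counts in WT, 84.9 in Cebpa-KO and 87.8 in DKO. In the libraries labelled Trib1-KO the Cebpa median was 2627, and their 2295 to 3163 lay below all WT libraries (4264 to 7412). Cebpa RNA thus differed from WT under that label too, by -1.16 ± 0.16 (limma adjusted p = 5.3e-06). Trib1, which encodes a pseudokinase that directs C/EBPα to degradation, went against its label. Its median was 1249 in WT and 4164 in the libraries labelled Trib1-KO, and the 3734 to 4784 of the latter lay above all WT libraries. In the libraries labelled DKO the Trib1 median was 769, against 287 in Cebpa-KO. The table has 1 value per gene and does not show which part of a transcript was read, so the deletion of Trib1 cannot be seen in it. These groups are therefore named as labelled.

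Promoters of the members were searched for the elements at which the 2 signals act. RefSeq promoter windows on GRCm38.p6, from 250 bases before to 50 after a transcription start, were matched for 31 of the 39 members in 35 windows. The stretches below lie upstream of the RefSeq start. They come from the members with the smallest p over the 4 groups in each class that hold an ISRE core (GAAA, any 2 bases, GAAA) or a gamma-activated site (TTCNNNGAA), and they show how the matches are placed. Capitals mark the matches, on either strand, and each stretch runs 5′ to 3′ on the gene's strand.
Oas1a: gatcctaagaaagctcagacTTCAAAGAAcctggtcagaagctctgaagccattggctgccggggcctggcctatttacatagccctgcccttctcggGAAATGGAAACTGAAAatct
Ifit2: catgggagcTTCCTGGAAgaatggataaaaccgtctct
Gbp3: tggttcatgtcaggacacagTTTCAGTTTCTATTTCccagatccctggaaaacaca
Gbp7: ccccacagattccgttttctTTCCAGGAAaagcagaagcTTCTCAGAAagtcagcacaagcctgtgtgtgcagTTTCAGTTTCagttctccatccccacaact
Irf1: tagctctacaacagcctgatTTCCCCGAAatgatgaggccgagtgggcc

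In the order printed, these lie at chr5:120907526-120907643 (minus strand), chr19:34550444-34550481, chr3:142559979-142560034, chr3:142530210-142530312 and chr11:53769904-53769952 (all plus strand). By GENCODE M21 they lie upstream of their genes, outside exons, except that the end of the Gbp3 stretch reaches into the first exon of 1 annotated Gbp3 transcript. Oas1a and Gbp3 each carry 2 ISRE cores that overlap, which makes 1 run of 3 GAAA or TTTC blocks. Gbp7 carries 2 gamma-activated sites and an ISRE core, while the Irf1 and Psmb8 windows carry a gamma-activated site and no ISRE core.

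An ISRE core was found in 18 of the 35 member windows (51.4%) and in 3.44% of all 32851 promoter windows in the table. Gamma-activated sites were found in 9 member windows (25.7%), against 8.3% of all windows. A C/EBP-like motif (TTGCNNAA) was found in 2 (5.71%), against 10.8%. Counted by gene, an ISRE core was present in 11 of 19 type I genes with a window, in 7 of 8 GTPases and in 0 of 4 further genes. The ISRE core was therefore not particular to the type I genes. The gamma-activated site was present in 3 of 19, 4 of 8 and 2 of 4. Gbp5, Gbp7, Igtp and Irgm2 of the GTPases and Oas1a and Bst2 of the type I genes had both. A match is a description of letters, and binding was not measured.

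**Figure D1:**
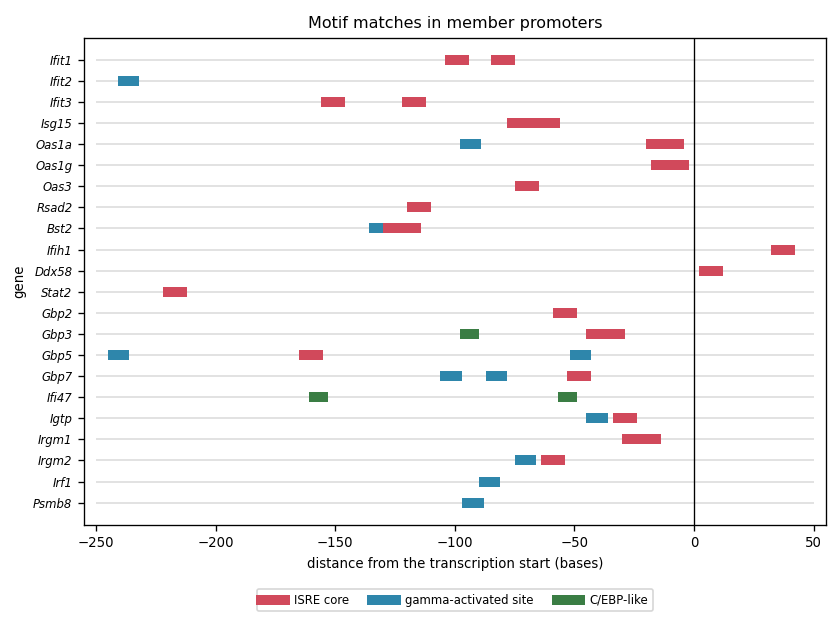
Motif matches in the promoter windows of the 22 members with at least 1 match, drawn by distance in bases from the RefSeq start; colours give the motif. The ISRE cores of Oas1a, Oas1g, Gbp3, Igtp and Irgm1 lie nearest before the start, and Gbp5, Gbp7, Igtp, Irgm2, Oas1a and Bst2 hold an ISRE core with a gamma-activated site.

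Over the 4 groups, 23 of the 39 members differed by the limma F test, beside 33.2% of all genes tested. These were 16 of 24 type I genes, 5 of 11 GTPases and 2 of 4 further genes. All 39 had passed the filter on low values. Levels in WT per kilobase of merged exons spanned a wide range: Bst2, a membrane protein that tethers budding virus, had a median of 2451 normalized counts per kilobase, and Oas3 of 3.34. The GTPase Iigp1 stood at 891 on that scale and the other 10 GTPases between 5.47 (Gbp5) and 300 (Irgm2).

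**Figure D2:**
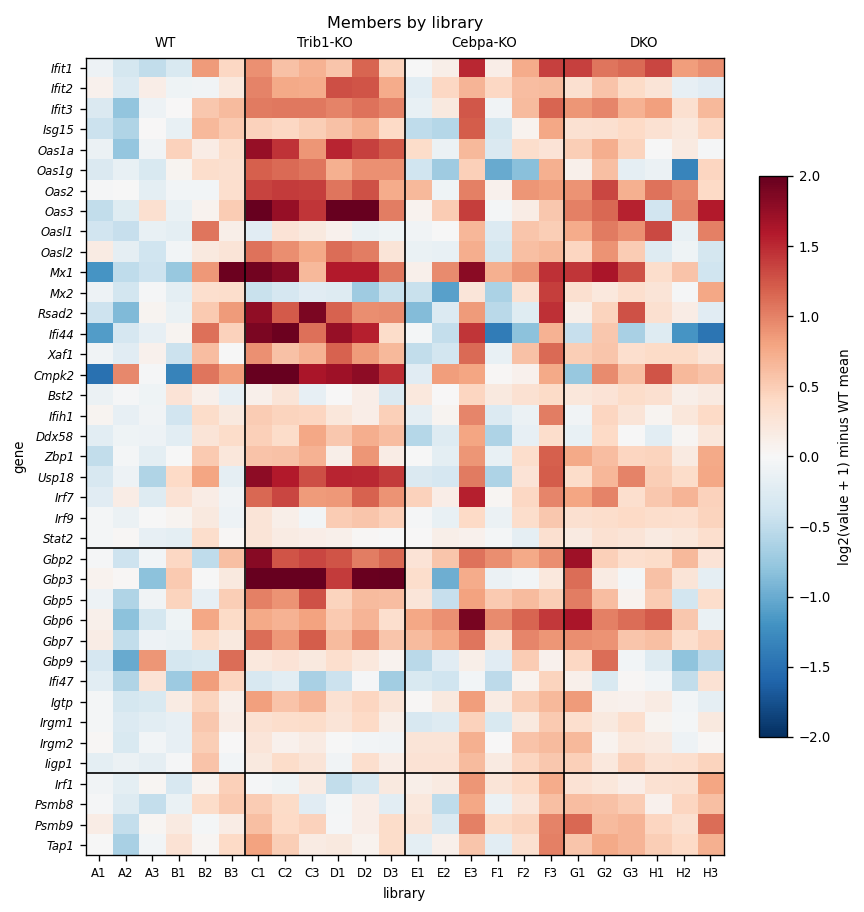
Each row is a member and each column a library; colour gives log2(value + 1) minus the WT mean of that gene, and values beyond -2 or 2 have the end colours. Horizontal lines separate 24 type I genes, 11 GTPases and 4 further genes. The 6 libraries labelled Trib1-KO are the most evenly raised, and E3 and F3 stand out among Cebpa-KO.

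Livers labelled Trib1-KO had more RNA of most type I genes than WT livers. Of the 24 type I genes 16 rose and 0 fell, with a median difference of 0.91 over all 24. Of the 11 GTPases 5 rose and 0 fell, with a median of 0.51, and of the 4 further genes none passed the test, with a median of 0.20. Among all genes tested 11.8% were called higher and 10.9% lower, and the median difference was 0.0077. At an unadjusted limma p under 0.05, 19 type I genes, 7 GTPases and 0 further genes were higher and 0 members lower. Without WT library B2 the GTPases called numbered 8 in place of 5. In the same libraries 10 of 12 Kupffer cell and macrophage markers rose. Their part in the result was not tested, and in whole tissue more cells of a type and more RNA per cell cannot be told apart.

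The antiviral effectors made up most of these rises, with 13 of 17 called, beside 11.8% of all genes called higher. The OAS enzymes make 2-5A, which activates RNase L. Oas1a ran from 44.4 to 106 normalized counts in WT (median 79.0), from 142 to 258 in the libraries labelled Trib1-KO (median 205), from 62.7 to 120 in Cebpa-KO (median 95.4) and from 75.2 to 128 in DKO (median 96.3). The libraries labelled Trib1-KO lay above every other library for Oas1a, whereas the other 3 groups overlapped. Oas1a rose by 1.36 ± 0.20 against WT (limma adjusted p = 1.1e-05).

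Oas2 ran from 65.4 to 95.5 in WT (median 73.1), 126 to 200.0 in the libraries labelled Trib1-KO (median 189), 71.1 to 153 in Cebpa-KO (median 127) and 99.5 to 192 in DKO (median 143). Both the Trib1-KO and the DKO range cleared WT. Oas2 rose by 1.20 ± 0.18 in the libraries labelled Trib1-KO (limma adjusted p = 2.1e-05). Oas3, the least abundant per kilobase, ran from 16.8 to 34.6 in WT (median 23.6), 49.9 to 123 in the libraries labelled Trib1-KO (median 93.7), 23.5 to 64.9 in Cebpa-KO (median 30.8) and 18.3 to 74.5 in DKO (median 52.0). Its rise of 1.79 ± 0.30 (limma adjusted p = 8.1e-05) left no overlap between the Trib1-KO label and WT.

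IFIT proteins bind foreign RNA ends and block translation. Ifit2 ran from 76.5 to 108 in WT (median 93.7), 156 to 229 in the libraries labelled Trib1-KO (median 172), 80.5 to 150.0 in Cebpa-KO (median 134) and 79.6 to 139 in DKO (median 114). The Trib1-KO label again lay above all other libraries, at 0.96 ± 0.16 against WT (limma adjusted p = 8.1e-05). Ifit3 stood at 1.04 and Ifit1 at 0.73 against WT. The Ifit1 call was lost when any of 7 libraries was left out, with the adjusted p reaching 0.088.

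Other effectors rose by similar amounts. Cmpk2, a mitochondrial nucleotide kinase, stood at 1.81 ± 0.39 and its chromosome 12 neighbour Rsad2, which encodes viperin, at 1.32 ± 0.34. Mx1, a dynamin-like GTPase that is defective in most laboratory strains, stood at 1.44 ± 0.44, and its range of 39.1 to 95.9 in the libraries labelled Trib1-KO overlapped WT, where B3 reached 98.5 and the median was 17.6. Without WT A1 the Mx1 call was lost (limma adjusted p = 0.053). Ifi44 ran from 35.0 to 166 in WT (median 74.3), 99.0 to 303 in the libraries labelled Trib1-KO (median 245), 28.7 to 209 in Cebpa-KO (median 64.8) and 27.2 to 112 in DKO (median 52.1). The groups overlapped for Ifi44, with a difference of 1.43 ± 0.42 against WT (limma adjusted p = 0.015).

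Oas1g (0.99), Oasl2 (0.86) and Xaf1 (0.81) rose as well. The 4 effectors that did not pass were Isg15 at 0.51, which encodes a ubiquitin-like modifier, Oasl1 at 0.015, Mx2 at -0.41 and Bst2 at 0.01. Oas1a and Oas1g, like Ifit3 and Ifit3b, are near-identical neighbours, so the split of reads within each pair is uncertain.

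Sensors detect viral nucleic acid in the cytosol. Ddx58, which encodes the RNA helicase RIG-I, ran from 458 to 689 in WT (median 499), 687 to 913 in the libraries labelled Trib1-KO (median 795), 347 to 926 in Cebpa-KO (median 460.0) and 462 to 700.0 in DKO (median 539). The Trib1-KO label overlapped WT only at its lowest library, and the difference was 0.58 ± 0.18 (limma adjusted p = 0.020). Zbp1, a sensor of Z-form nucleic acid, ran from 76.8 to 155 in WT (median 106), 117 to 199 in the libraries labelled Trib1-KO (median 161), 94.2 to 249 in Cebpa-KO (median 122) and 122 to 183 in DKO (median 157).

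Ifih1, which encodes MDA5, ran from 520.0 to 883 in WT (median 679), 743 to 970.0 in the libraries labelled Trib1-KO (median 922), 565 to 1379 in Cebpa-KO (median 667) and 650.0 to 920.0 in DKO (median 809). For these 2 sensors all groups overlapped WT, and the Trib1-KO label against WT gave 0.50 ± 0.21 for Zbp1 (limma adjusted p = 0.10) and 0.37 ± 0.19 for Ifih1 (limma adjusted p = 0.18).

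Regulators of the response divided. Usp18, which removes ISG15 and restrains the type I receptor, ran from 101 to 266 in WT (median 139), 376 to 531 in the libraries labelled Trib1-KO (median 438), 99.1 to 354 in Cebpa-KO (median 156) and 197 to 305 in DKO (median 230.0). The Trib1-KO label cleared every other library, at 1.51 ± 0.26 against WT (limma adjusted p = 9.7e-05). Irf7, the factor that drives interferon alpha genes, ran from 530.0 to 776 in WT (median 654), 1150 to 1616 in the libraries labelled Trib1-KO (median 1303), 652 to 1879 in Cebpa-KO (median 862) and 803 to 1272 in DKO (median 977). Both the Trib1-KO and the DKO range of Irf7 lay above WT, and the former differed by 1.05 ± 0.19 (limma adjusted p = 0.00014).

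Irf9 and Stat2, whose products are parts of ISGF3, moved less. Irf9 ran from 649 to 808 in WT (median 692), 678 to 1034 in the libraries labelled Trib1-KO (median 907), 631 to 1023 in Cebpa-KO (median 794) and 875 to 955 in DKO (median 898). Stat2 ran from 1192 to 1738 in WT (median 1351), 1360 to 1622 in the libraries labelled Trib1-KO (median 1478), 1206 to 1709 in Cebpa-KO (median 1408) and 1544 to 1721 in DKO (median 1617). Only for DKO and Irf9 did a group clear WT. Against WT the Trib1-KO label gave 0.31 ± 0.11 for Irf9 (limma adjusted p = 0.053) and 0.11 ± 0.08 for Stat2 (limma adjusted p = 0.39).

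**Figure D3:**
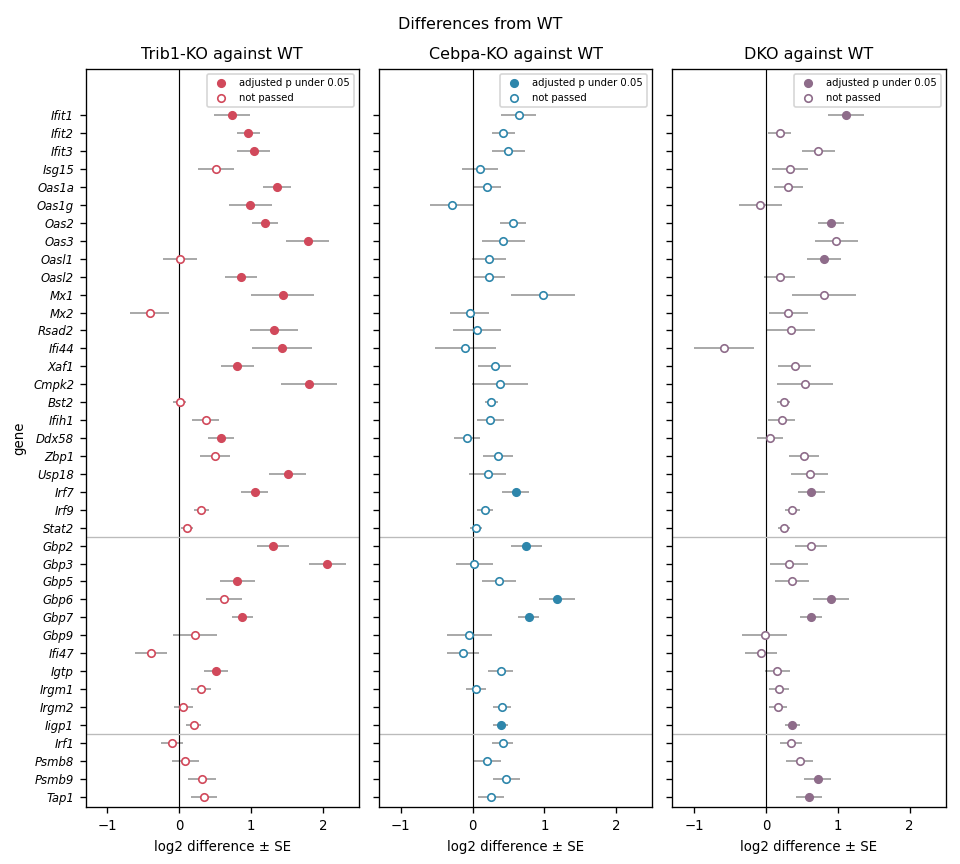
Log2 differences from WT ± standard error for the 39 members, in the order type I genes, GTPases, further genes; filled points passed the limma test at an adjusted p under 0.05. Filled points number 21 for the Trib1-KO label, 5 for Cebpa-KO and 9 for DKO, and all lie to the right of 0.

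GTPases of interferon gamma attack the vacuoles in which parasites and bacteria live. Guanylate-binding proteins (GBPs) coat them, and some of the immunity-related GTPases (IRGs), the effector IRGs, help to break them. In the libraries labelled Trib1-KO 4 of 6 GBPs and 1 of 5 IRGs rose, beside 11.8% of all genes called higher. The IRG count is near that share. Gbp3 had the largest difference of the 39 members in that comparison. It ran from 70.7 to 181 in WT (median 130.0), 330.0 to 762 in the libraries labelled Trib1-KO (median 519), 63.3 to 211 in Cebpa-KO (median 133) and 110.0 to 272 in DKO (median 145). The libraries labelled Trib1-KO lay above all others, at 2.06 ± 0.26 against WT (limma adjusted p = 1.5e-06).

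Gbp2 ran from 74.1 to 162 in WT (median 103), 217 to 378 in the libraries labelled Trib1-KO (median 255), 129 to 226 in Cebpa-KO (median 192) and 128 to 346 in DKO (median 142). Gbp7 ran from 151 to 273 in WT (median 217), 313 to 494 in the libraries labelled Trib1-KO (median 392), 265 to 448 in Cebpa-KO (median 378) and 271 to 403 in DKO (median 316). Both cleared WT under the Trib1-KO label, with 1.31 ± 0.22 for Gbp2 (limma adjusted p = 7.9e-05) and 0.88 ± 0.15 for Gbp7 (limma adjusted p = 8.4e-05). Gbp5 rose by 0.81. Gbp2, Gbp3, Gbp5 and Gbp7, the 4 that rose, are the members of the cluster on chromosome 3, and the 2 on chromosome 5, Gbp6 and Gbp9, did not pass, at 0.63 and 0.22.

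Gbp6 ran from 157 to 475 in WT (median 280.0), 352 to 486 in the libraries labelled Trib1-KO (median 447), 474 to 1040 in Cebpa-KO (median 577) and 253 to 867 in DKO (median 578). Its highest libraries were in Cebpa-KO and DKO, and all 3 groups overlapped WT. Reads of GBPs in 1 cluster can be shared between paralogs, so single GBP values are less certain than those of unrelated genes.

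Of the IRGs, Igtp, which encodes IRGM3, ran from 365 to 633 in WT (median 476), 560.0 to 825 in the libraries labelled Trib1-KO (median 662), 476 to 834 in Cebpa-KO (median 594) and 410.0 to 843 in DKO (median 498). It rose by 0.51 ± 0.17 under the Trib1-KO label with overlap (limma adjusted p = 0.027), and leaving out any of 4 libraries ended the call, with the adjusted p reaching 0.071. Irgm2 ran from 909 to 1591 in WT (median 1107), 1067 to 1332 in the libraries labelled Trib1-KO (median 1158), 1135 to 1843 in Cebpa-KO (median 1509) and 1043 to 1765 in DKO (median 1226). Igtp and Irgm2 overlap in the annotation on chromosome 11, so reads in the shared part are ambiguous.

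Irgm1 ran from 881 to 1545 in WT (median 990.0), 1146 to 1403 in the libraries labelled Trib1-KO (median 1335), 851 to 1535 in Cebpa-KO (median 1054) and 1035 to 1345 in DKO (median 1211). Iigp1, the effector IRG that is loaded onto vacuoles, ran from 4834 to 8183 in WT (median 5186), 5248 to 7073 in the libraries labelled Trib1-KO (median 6429), 6219 to 8512 in Cebpa-KO (median 7059) and 6363 to 7629 in DKO (median 7202). Under the Trib1-KO label Irgm1 (0.30), Irgm2 (0.06), Iigp1 (0.20) and Ifi47 (-0.39) did not pass the test, and all 4 overlapped WT.

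The further interferon gamma genes serve antigen presentation or its control. Irf1, the factor that extends the gamma response, ran from 559 to 973 in WT (median 693), 498 to 802 in the libraries labelled Trib1-KO (median 671), 754 to 1283 in Cebpa-KO (median 876) and 762 to 1213 in DKO (median 861). Psmb9, an immunoproteasome subunit, ran from 150.0 to 236 in WT (median 222), 204 to 315 in the libraries labelled Trib1-KO (median 273), 171 to 420.0 in Cebpa-KO (median 278) and 261 to 464 in DKO (median 330.0). DKO was the group that cleared WT for Psmb9, while Irf1 overlapped WT in all 3 groups.

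Tap1, the peptide transporter subunit whose gene meets Psmb9 head to head, ran from 305 to 633 in WT (median 483), 505 to 836 in the libraries labelled Trib1-KO (median 583), 415 to 963 in Cebpa-KO (median 556) and 635 to 811 in DKO (median 737). Psmb8, another immunoproteasome subunit, ran from 339 to 680.0 in WT (median 448), 403 to 671 in the libraries labelled Trib1-KO (median 490.0), 333 to 810.0 in Cebpa-KO (median 554) and 503 to 725 in DKO (median 694). For Tap1 DKO cleared WT, narrowly, and for Psmb8 no group did.

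**Figure D4:**
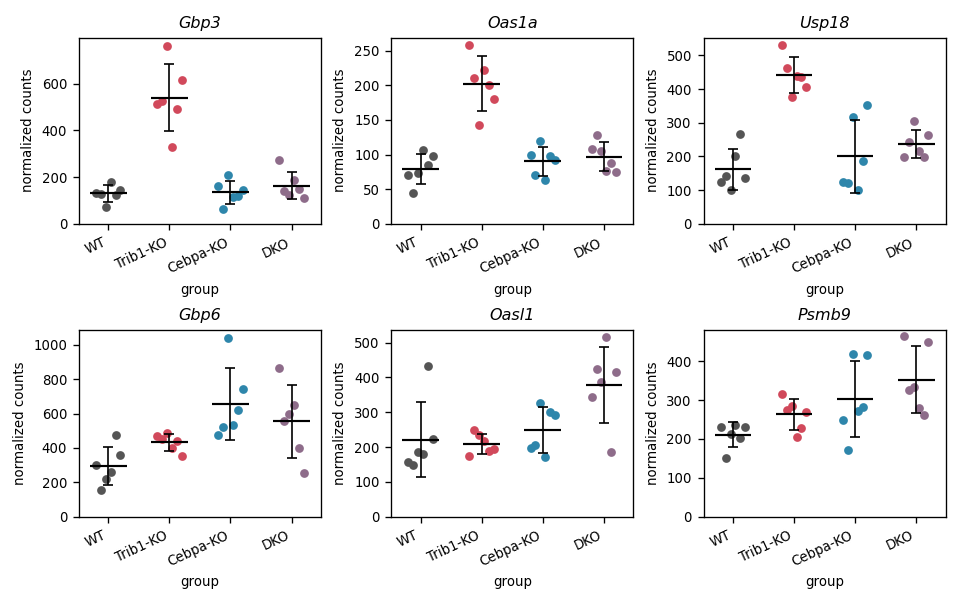
Normalized counts per library for 6 members; horizontal bars are group means and error bars are SD (n = 6). Gbp3, Oas1a and Usp18 are high in the libraries labelled Trib1-KO, Gbp6 is highest in Cebpa-KO and DKO, and Oasl1 and Psmb9 have their highest means in DKO.

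Counted by library, 10 of 24 type I genes and 3 of 11 GTPases had all 6 libraries labelled Trib1-KO above all 6 WT libraries, where 6.26% of all genes tested did. The type I genes were Ifit2, Ifit3, Oas1a, Oas1g, Oas2, Oas3, Rsad2, Cmpk2, Usp18 and Irf7, and the GTPases Gbp2, Gbp3 and Gbp7. In Cebpa-KO 0 of 39 members did so, against 2.52% of all genes. In DKO 5 did, namely Oas2, Irf7, Irf9, Psmb9 and Tap1, against 1.55%.

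In Cebpa-KO livers 4 of 11 GTPases and 1 of 24 type I genes were called higher than in WT and 0 lower. Medians were 0.39 for the GTPases and 0.24 for the type I genes. The background was 4.6% of genes higher and 5.22% lower, and the type I count is near it. At an unadjusted limma p under 0.05, 6 GTPases, 7 type I genes and 2 further genes were higher and 0 members lower. The GTPases were Gbp6 at 1.18 ± 0.25 (limma adjusted p = 0.0026), Gbp7 at 0.78 ± 0.15 (0.00095), Gbp2 at 0.75 ± 0.22 (0.029) and Iigp1 at 0.39 ± 0.11 (0.019). Gbp3, the leading gene under the Trib1-KO label, stood at 0.03 ± 0.26 here. The type I gene was Irf7 at 0.60 ± 0.19 (limma adjusted p = 0.042).

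Leaving out E3 reduced the GTPases called in Cebpa-KO from 4 to 2. The type I count of 1 became 0 to 3 over all fits that left out 1 library, and the Irf7 call was lost in 8 of these 24 fits and the Gbp2 call in 6. Irf7 was also lost when only the compared groups entered the fit (limma adjusted p = 0.13), as was that of Iigp1 (0.079).

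Outside the members, a list of 28 further interferon gamma targets and antigen presentation genes was read, which includes relatives of Gbp6. Beside 4.6% of all genes higher and 5.22% lower in Cebpa-KO, 4 of the 27 tested rose and 0 fell. These were Gvin1, a very large GTPase, at 2.02 (limma adjusted p = 1.3e-06), Gbp11 at 1.67 (0.023), Gbp10 at 1.58 (0.00059) and the immunoproteasome subunit Psmb10 at 0.33 (0.018). Under the Trib1-KO label the same 4 stood at 0.46, 0.13, -0.19 and -0.04 and did not pass. Gbp10 ran from 127 to 363 in WT and from 432 to 1071 in Cebpa-KO, without overlap.

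Within Cebpa-KO the type I genes varied most between mice. A class score, the mean of log2(value + 1) over the class relative to the WT mean, was 0.92 in E3 and 0.85 in F3 and between -0.22 and 0.24 in the other 4 Cebpa-KO libraries. E3 was the highest Cebpa-KO library for 14 of 24 type I genes and 8 of 11 GTPases, and F3 for 9 and 2. The same 2 libraries had the highest summed macrophage markers of that group, at 15974 and 16884 against 12903 to 14186 in the others. The part of these markers in the scores was not tested.

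Against WT, DKO livers had 4 of 24 type I genes, 3 of 11 GTPases and 2 of 4 further genes called higher and 0 members lower. Medians were 0.36, 0.32 and 0.54, and 2.84% of all genes were called higher and 3.25% lower. At an unadjusted limma p under 0.05, 11, 4 and 4 genes were higher and 0 lower. The type I genes were Ifit1 at 1.11 ± 0.25 (limma adjusted p = 0.0064), Oas2 at 0.90 ± 0.18 (0.0029), Oasl1 at 0.81 ± 0.24 (0.040) and Irf7 at 0.63 ± 0.19 (0.041). The GTPases were Gbp6 at 0.90 ± 0.25 (0.034), Gbp7 at 0.63 ± 0.15 (0.011) and Iigp1 at 0.37 ± 0.11 (0.039), and the further genes Psmb9 at 0.72 ± 0.19 (0.019) and Tap1 at 0.60 ± 0.18 (0.048). Of these 9 calls Ifit1, Oas2 and Gbp7 passed under every alternative run. Tap1 was lost in 16 of 24 fits that left out 1 library, with an adjusted p of up to 0.13. The 4 type I genes became 2 without any of WT A1, A2 and A3 and DKO G1 and G2. The 3 GTPases became 1 without any of WT A2, A3 and B1 and DKO G1, G3 and H1.

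DKO and Cebpa-KO livers, with Cebpa medians of 87.8 and 84.9, gave no call among the members. By limma 0 of 39 were higher and 0 lower, where 0.0808% of all genes were higher and 0.121% lower. At an unadjusted p under 0.05, 2 were higher, Oasl1 at 0.58 ± 0.24 and Stat2 at 0.20 ± 0.08, and 0 lower. Median differences were 0.19 for type I genes and -0.02 for GTPases. For Gbp3 the difference was 0.29 ± 0.26 and for Usp18 0.40 ± 0.26, beside 2.06 and 1.51 for the Trib1-KO label against WT.

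Set against the libraries labelled Trib1-KO, DKO livers had less RNA of 10 of 24 type I genes and 2 of 11 GTPases. Background was 15.7% of genes lower and 14.6% higher, and the GTPase count is near the share lower. The class medians were -0.41 and -0.24. The largest falls were Ifi44 at -2.02 ± 0.42 (limma adjusted p = 0.00058), Gbp3 at -1.74 ± 0.26 (9e-06), Cmpk2 at -1.26 ± 0.39 (0.015), Oas1g at -1.07 ± 0.30 (0.0068) and Oas1a at -1.06 ± 0.20 (0.00017). Gbp2 was the other GTPase, at -0.68 ± 0.22 (0.021). The 2 GTPases became 1 without C1 or without H3, and 6 under scaling to totals that leave out the major urinary protein (Mup) genes. In the same comparison 7 of 12 Kupffer cell and macrophage markers (median -0.44) and 3 of 12 lymphocyte markers were lower, and of 8 hepatocyte markers 7 were higher and 1 lower. Their part in these differences was not tested.

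Members that went the other way were the type I genes Oasl1 at 0.80 ± 0.24 (limma adjusted p = 0.011) and Mx2 at 0.72 ± 0.27 (0.042) and the further gene Irf1 at 0.44 ± 0.15 (0.027). Oasl1 ran from 149 to 433 in WT (median 183), 175 to 249 in the libraries labelled Trib1-KO (median 206), 170.0 to 326 in Cebpa-KO (median 248) and 186 to 515 in DKO (median 402). Its WT range was set by B2 alone at 433, since the next WT library was at 222. These 3 calls were lost under the scaling without Mup genes, at adjusted p values of 0.10, 0.21 and 0.42, though the direction stayed. The 2 type I genes became 1 without any of C1, D1, D3, G1, G2, G3, H1 and H3.

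Whether the difference under the Trib1-KO label depends on Cebpa was read from the interaction, (DKO minus Cebpa-KO) minus (Trib1-KO minus WT). It was called negative for 6 of 24 type I genes and 4 of 11 GTPases and called positive for none. Beside this, 6.22% of all genes were called lower and 6.35% higher. Without regard to a call, it was above 0 for 3 type I genes and 1 GTPase. At an unadjusted limma p under 0.05, 13 type I genes and 6 GTPases were lower and 0 members higher. Class medians were -0.80 and -0.75, so that the classes stood close together in this comparison. The genes were Ifi44 at -1.91 ± 0.60 (limma adjusted p = 0.035), Oas1a at -1.26 ± 0.28 (0.0030), Ifit2 at -1.20 ± 0.23 (0.00075), Usp18 at -1.12 ± 0.37 (0.047), Irf7 at -1.01 ± 0.26 (0.011) and Oas2 at -0.87 ± 0.26 (0.026). The GTPases were Gbp3 at -1.77 ± 0.37 (0.0016), Gbp2 at -1.43 ± 0.31 (0.0026), Gbp7 at -1.03 ± 0.21 (0.0015) and Igtp at -0.75 ± 0.23 (0.036).

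The interaction was also called negative for 7 of 12 Kupffer cell and macrophage markers (median -0.57) and called positive for 6 of 8 hepatocyte markers (median 0.88). The part of these markers in the result was not tested. Without E3 the interaction held for 3 type I genes in place of 6. The calls of Usp18, Igtp and Ifi44 were lost in 18, 14 and 12 of the 24 fits that left out 1 library.

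Type I genes and GTPases were then set side by side by library. The type I score was 0.60 to 1.00 in the libraries labelled Trib1-KO (median 0.90) and -0.32 to 0.46 in WT (median -0.13), and 6 of 6 lay above the highest WT library. The GTPase score was 0.42 to 0.75 in the libraries labelled Trib1-KO (median 0.62) and -0.45 to 0.33 in WT (median -0.03), again 6 of 6. In Cebpa-KO the medians were 0.09 for type I and 0.35 for GTPases, with 2 and 3 of 6 libraries above WT. In DKO they were 0.39 and 0.31, also with 2 and 3 of 6.

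The type I score minus the GTPase score had medians of -0.01 in WT, 0.26 in the libraries labelled Trib1-KO, -0.20 in Cebpa-KO and 0.20 in DKO. Its ranges, -0.26 to 0.22, 0.02 to 0.45, -0.39 to 0.22 and -0.42 to 0.30, overlapped in every pair of groups. Spread of single genes between mice, pooled over the groups, was alike in both classes. Its median within-group SD was 0.42 for type I genes and 0.40 for GTPases. The scores were less alike by group: their SD was 0.50 for type I and 0.29 for GTPases in Cebpa-KO, and 0.18 and 0.29 in DKO. In WT it was 0.32 and 0.28, and in the libraries labelled Trib1-KO 0.14 and 0.15. The 3 comparisons with WT share the same 6 WT libraries.

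**Figure D5:**
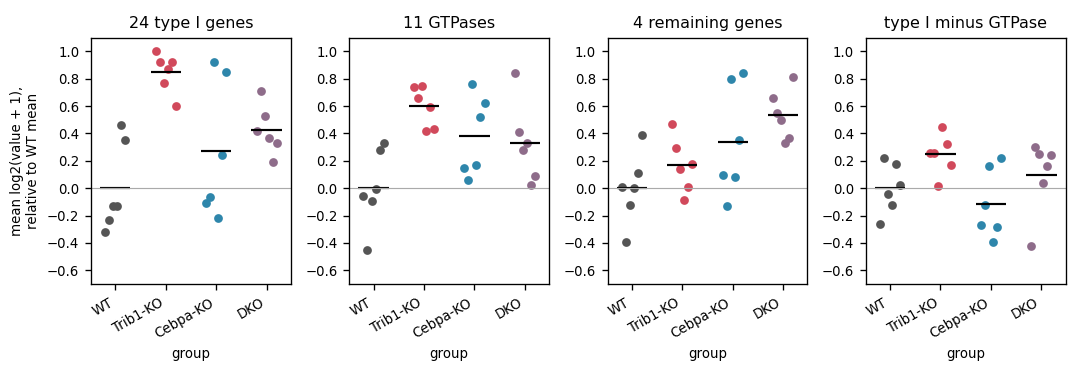
Mean log2(value + 1) of each class per library, relative to the WT mean, and the type I score minus the GTPase score; points are libraries and bars are group means. All 6 libraries labelled Trib1-KO lie above WT for type I genes and for GTPases, and the difference between both scores overlaps in all groups.

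Upstream of the members, interferon transcripts themselves were near or at the limit of the table. Of 10 interferon genes listed, Ifnb1, Ifna1, Ifna2, Ifna4, Ifna5, Ifne and Ifnl2 were listed at 0 in all 24 libraries. Ifng was above 0 in 12 libraries and reached 3.82 normalized counts, Ifnk in 5 and Ifnl3 in 1. None passed the filter, so none was tested.

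Of 17 receptors, kinases and adaptors 5 were higher and 2 lower under the Trib1-KO label, beside 11.8% and 10.9% of all genes, and the lower count is near that background. Ikbke, the kinase that activates IRF3 and IRF7, stood at 1.22 (limma adjusted p = 0.00024), and ran from 313 to 725 in WT and from 988 to 1414 in the libraries labelled Trib1-KO. Ifngr2 (0.58), Il10rb (0.45), Ticam1 (0.26) and Jak2 (0.19) rose, whereas the receptor subunit gene Ifnar2 (-0.47) and the sensor gene Tlr3 (-0.56) fell. In Cebpa-KO Ikbke fell by 1.32 (limma adjusted p = 0.00027), opposite to the Trib1-KO label.

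Of 14 transcription factors and inhibitors 3 were higher and 1 lower under the Trib1-KO label, beside 11.8% and 10.9% of all genes. The lower count is near that background. Among those called, Irf8 (0.68) and Ciita (1.08), the master factor of class II presentation, rose and Irf2 (-0.23) fell. Both lists that follow stand beside the same 11.8% of all genes higher and 10.9% lower. Of 32 other interferon targets 18 rose and 0 fell, against 23 and 0 at an unadjusted p under 0.05. Of the 27 further interferon gamma and antigen presentation genes tested, 12 rose and 0 fell, against 13 and 1 at an unadjusted p under 0.05. The chemokine genes Cxcl10 (2.04) and Cxcl9 (1.94) led these.

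Markers of other cells moved with the Trib1-KO label, under which 11.8% of all genes were higher and 10.9% lower. The 12 Kupffer cell and macrophage markers summed to 9915 to 17988 normalized counts in WT and 18896 to 22138 in the libraries labelled Trib1-KO, and 10 of 12 rose. They summed to 12903 to 16884 in Cebpa-KO and 11427 to 17827 in DKO, where 0 of 12 passed against WT (2 and 4 at an unadjusted limma p under 0.05). The 12 lymphocyte markers summed to 220.0 to 523 in WT and 534 to 951 under the Trib1-KO label, with 5 of 12 called higher. None of either list was at 0 in a whole group.

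Other marker lists held calls as well, beside 11.8% of all genes higher and 10.9% lower. Of 8 neutrophil markers, 7 were tested and 3 rose under the Trib1-KO label. Of the plasmacytoid dendritic cell markers, which include the member Bst2, 3 of 5 tested rose. The plasmacytoid list summed to 2672 to 3160 in WT and 2389 to 3443 under the Trib1-KO label, with overlap. Bst2 alone ran from 2053 to 2766 and from 1871 to 2748 in these groups. It made up most of each sum, so the sum does not show the level of the other markers. Of 8 sinusoidal endothelial markers 3 rose and 1 fell, and the count that fell is near the share lower. Hepatocyte markers, which bear out the labelled tissue, summed to 1995432 to 2819825 in WT and 892385 to 1022839 under the Trib1-KO label, with 7 of 8 lower. The part of these cells in the rise of the members was not tested.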

How the data were processed

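Whole-liver RNA of 24 mice was sequenced from stranded mRNA libraries, per the labels' protocols. The authors deposited 1 table in the unit signal, taken here, from its values, as estimated counts divided by a size factor per library. Per the submitters' processing notes the authors used Salmon, DESeq2 and GRCm38.p6, without versions or roles. Of low values, 61.4 to 65.2% were multiples (within 0.02) of 1 read's worth, 0.686 to 1.46 normalized counts, so whole reads could not be recovered and no count test was used. These give an estimated 18617392 to 34272077 reads per library.

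From the deposited signal values, log2(value + 1) was computed for 19810 genes (mean over all libraries 1 or more) and fitted with limma 3.58.1 in R 4.3.3 (trended variance, 4 group means, 24 libraries), with Benjamini-Hochberg adjustment. The script was tested on simulated data. Of the member IDs, 37 of 39 matched GENCODE M21 with their version. Motifs were searched on both strands.

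Members, classes, lists and motifs were chosen with earlier results of these data known. Group values were given for up to 4 members per role with the smallest F-test p among those with a mean of at least 10, and for every member called in the interaction; Oasl1, Mx1 and the pathway genes given with group values were chosen after their values were seen. Alternatives were pseudocounts of 0.5 and 5, no filter, a mean of at least 10, scaling without Mup genes, quantile normalization, a fit of the compared groups alone, the column number as a block, leaving out each library and, chosen after seeing the data, the first against the second column letter of each genotype as a block. Results for an item withheld from this text are not reported here.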

Additional observations from a re-analysis of the deposited data

Results flagged for a closer look

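In 13 of 156 pairs of member and group, 1 library stood apart from the other 5 by Dixon's test. At 1 in 20 about 7.8 would be flagged by chance, and in all 13 that library was the high one. The test used normalized counts without the log2 step, and members share libraries, so the 7.8 is only a rough guide. In WT the flagged libraries were B2 for Oasl1 (433), Stat2 (1738), Irgm2 (1591) and Iigp1 (8183) and B3 for Oas2 (95.5), in normalized counts. Among the libraries labelled Trib1-KO it was C1 for Gbp2 (378). In Cebpa-KO they were E3 for Oas3 (64.9) and F3 for Mx2 (363). In DKO they were G1 for Gbp2 (346), Igtp (843) and Irgm2 (1765), G3 for Rsad2 (455) and H3 for Irf1 (1213).

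For 10 members the difference between the Trib1-KO label and its control differed with Cebpa, by the limma interaction term. Its values were -1.20 for Ifit2, -1.26 for Oas1a, -0.87 for Oas2, -1.91 for Ifi44, -1.12 for Usp18 and -1.01 for Irf7 among type I genes, and -1.43 for Gbp2, -1.77 for Gbp3, -1.03 for Gbp7 and -0.75 for Igtp among GTPases.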

How the results depend on the processing

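No member reversed direction while called, and 36 of 60 calls passed under every alternative run. Against WT these were 18 of 21 for the Trib1-KO label, 2 of 5 for Cebpa-KO and 3 of 9 for DKO. For DKO against Trib1-KO they were 7 of 15, and for the interaction 6 of 10. Scaling without Mup genes moved the median of all genes to 0.24 for the Trib1-KO label against WT, -0.29 for DKO against Trib1-KO and -0.24 for the interaction, and the higher and lower calls over all genes from 2330 and 2168 to 5180 and 987, from 2901 and 3105 to 1452 and 6346, and from 1257 and 1233 to 625 and 2883. In Cebpa-KO and DKO against WT they went from 912 and 1034 to 674 and 1207 and from 563 and 643 to 417 and 739. It gave 8 GTPases higher for the Trib1-KO label against WT (5 in the main analysis), 0 type I genes higher in Cebpa-KO (1), 2 type I genes (4) and 1 GTPase (3) higher in DKO against WT, 0 type I genes higher (2) and 6 GTPases lower (2) in DKO against Trib1-KO, and 11 type I genes (6) and 7 GTPases (4) lower in the interaction. With no filter, 0 type I genes were higher in Cebpa-KO, 2 type I genes and 1 GTPase in DKO against WT and 1 type I gene in DKO against Trib1-KO. With a mean of at least 10, 2 type I genes were higher in Cebpa-KO and 7 in DKO against WT. Quantile normalization gave 2 type I genes higher in Cebpa-KO. The compared groups alone gave 0 type I genes in Cebpa-KO and 1 GTPase in DKO against WT, and over all genes 378 higher and 415 lower in DKO against WT (563 and 643 in the main analysis) and 4 and 14 in DKO against Cebpa-KO (16 and 24). The column-number block gave 34 and 27 for the last. With no filter these were 8 and 17. The cause was not tested.

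Leaving out 1 library gave 4 to 8 GTPases higher for the Trib1-KO label against WT (8 without WT B2). It gave 0 to 3 type I genes and 2 to 5 GTPases higher in Cebpa-KO, and 2 to 6 type I genes and 1 to 3 GTPases higher in DKO against WT. In DKO against Trib1-KO 1 to 3 type I genes were higher, and 7 to 11 type I genes and 1 to 3 GTPases lower. There the lower calls of Oas3, Rsad2, Ddx58 and Oasl2 were lost in 10, 5, 4 and 3 of the 24 fits. The interaction had 3 to 9 type I genes lower and 0 to 1 higher (1 without Cebpa-KO F3). No paired analysis was possible because the columns carry no replicate number of the labels. A block for the first against the second column letter of each genotype, chosen after seeing the data, moved no class count by more than 1.5 times. With it Tap1 was lost in DKO against WT (limma adjusted p = 0.054) and Irf9 was called higher for the Trib1-KO label (0.034) and DKO (0.035) against WT. What a letter marks is not given in the sources used here.

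With 6 mice a group, single calls near the threshold depend on 1 library. Low members such as Oas3 and Mx1 rest on few reads.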
